A study of Homo sapiens with 27 samples.

Results

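The lysosomal hydrolases and membrane proteins are 42 named human genes, and their transcripts were followed in 501mel cells, a human melanoma line, with and without TFE3 and TFEB. The genes were chosen by name as the enzymes, activators and membrane proteins of the lysosome, and 41 of them were in the table of 13523 genes. GALC was not in it. All 41 were among the 13052 genes tested. They comprised 8 proteases, 8 glycosidases, 7 enzymes of glycosaminoglycan breakdown, 9 enzymes and carriers of lipids, 1 nuclease (DNASE2) and 8 other proteins of the lysosomal membrane. HGSNAT and NPC1 also sit in the membrane but are counted by what they act on, with glycosaminoglycans and lipids. Parental cells, called WT, were grown without treatment, for 12 h in HBSS, a balanced salt solution with glucose and no amino acids, or for 12 h with Torin at 250 nM, which blocks the kinase mTOR. Cells that had lost TFE3 (TFE3 KO), TFEB (TFEB KO) or both (DKO) after Cas9 cutting were grown for 12 h as controls or with the same dose of Torin, and no knockout cells were placed in HBSS. TFE3 KO and TFEB KO were 1 clone each and DKO was 1 line, so clone and genotype cannot be told apart. MITF, the family member that marks melanocytes, was not targeted in any line, but its transcript differed between groups.

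Lysosomal hydrolases break down protein, glycan, lipid and nucleic acid in an acid compartment, and the membrane proteins shield that compartment and export what the enzymes release. Many of their genes carry an E-box in the promoter that TFEB, TFE3 and MITF can bind. When mTORC1 is active it holds much of TFEB and TFE3 in the cytoplasm, and when it is inhibited or amino acids run out more of these factors enters the nucleus. In melanocytes the same family also drives pigment genes, and melanosomes are organelles related to lysosomes.

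There were 27 libraries, 3 for each of 9 groups. The column of WT HBSS replicate 3 and that of WT Torin replicate 1 held the same value in all 13523 genes, and both were set aside. Among the 25 libraries used, these groups have 2 libraries each and the other 7 have 3. Depth ran from 4147050 to 6526392 reads per library, and 3 reads corresponded to a normalised value of 0.460 to 0.711. The labels do not say whether replicates were separate cultures, so the p-values measure the spread between these libraries, which may be technical. The gene TFE3 averaged 24.0 ± 0.285 (SD, n = 3) in WT control, 6.30 ± 1.27 (SD, n = 3) in cells without TFE3 and 6.35 ± 0.470 (SD, n = 3) in DKO. With Torin the separation was smaller: TFE3 KO averaged 10.8 ± 2.80 (SD, n = 3) and DKO 6.96 ± 1.30 (SD, n = 3), against 19.0 ± 2.02 (SD, n = 2) for WT. TFEB was low in all controls, at 3.25 ± 0.827 (SD, n = 3) in WT, 1.11 ± 0.485 (SD, n = 3) in TFEB KO and 0.681 ± 0.764 (SD, n = 3) in TFE3 KO, so it says little about the TFEB label, and it rose to 29.2 ± 1.65 (SD, n = 2) in WT HBSS. MITF averaged 762 ± 37.3 (SD, n = 3) in WT control, 1423 ± 44.1 (SD, n = 2) in HBSS, 734 ± 1.53 (SD, n = 2) in WT Torin, 556 ± 34.9 (SD, n = 3) in DKO control and 580 ± 25.9 (SD, n = 3) in DKO Torin. All 7 melanocyte markers were measured, and none of 3 keratinocyte, 3 endothelial and 5 leukocyte markers was in the table. Of 4 fibroblast markers COL1A1 and LUM were in it, both low, and COL1A1 averaged 0.611 ± 0.196 (SD, n = 3) in WT control, 0.449 ± 0.384 (SD, n = 3) in TFE3 KO, 3.04 ± 0.773 (SD, n = 3) in TFEB KO and 3.87 ± 1.03 (SD, n = 3) in DKO. The summed melanocyte markers moved with treatment, from 6196 to 6392 in WT control to 14300 to 14450 in HBSS and 8031 to 8269 in WT Torin. All 7 were higher in HBSS. With Torin in WT, PMEL, TYRP1, MLANA and SOX10 were higher, TYR was lower (log2 difference -0.49), and DCT (-0.08) and MITF (-0.05) changed little. The sum was 5123 to 5581 in DKO control and 7043 to 7196 in DKO Torin. In DKO control DCT, MITF, TYRP1 and PMEL were lower than in WT control and TYR was higher. The part of these markers in the results was not tested. In bulk RNA, fewer cells of a type and less RNA per cell cannot be told apart.

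Promoter letters are shown because members with and without an E-box are set side by side in the DKO results. Of the 41 members, 29 had an entry in the RefSeq promoter table of GRCh38.p14, which spans 250 bases before and 50 after each start site, and 12 had none (ARSA, ASAH1, CTSB, CTSK, HEXA, HGSNAT, LAMP2, LGMN, MANBA, NAGLU, PSAP and SGSH). The E-box letters CACGTG, which read the same on both strands, were present for 10 of the 29 (34.5%) and for 12.9% of the 9664 tested genes that had an entry. The longer letters TCACGTGA, which include CACGTG, were present for 6 of the 29 (20.7%) and for 2.26% of those tested genes. Among all 35116 promoters in the table the shares were 7.26% and 0.980%. A match is a description of the letters and does not show that a factor bound there. A window of 30 bases is printed for each of the 10, 5′ to 3′ on the strand of the gene, with the letters in capitals.
LAMP1, chr13:113297199-113297228, plus strand: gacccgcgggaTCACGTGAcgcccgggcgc
MCOLN1, chr19:7522571-7522600, plus strand: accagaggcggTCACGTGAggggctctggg
GAA, chr17:80101493-80101522, plus strand: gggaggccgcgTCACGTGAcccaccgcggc
CTSA, chr20:45891298-45891327, plus strand: ggcgccggagtTCACGTGActcgtacacat
CLN3, chr16:28492058-28492087, minus strand: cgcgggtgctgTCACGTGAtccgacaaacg
GALNS, chr16:88857104-88857133, minus strand: caggcaccgcgTCACGTGAcccgccgctgg
CD63, chr12:55729172-55729201, minus strand: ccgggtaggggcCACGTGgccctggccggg
CTSD, chr11:1763957-1763986, minus strand: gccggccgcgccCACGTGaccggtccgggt
NEU1, chr6:31862930-31862959, minus strand: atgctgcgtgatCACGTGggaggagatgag
ARSB, chr5:78986101-78986130, minus strand: taattcaataagCACGTGactaaaggattt
LAMP1, MCOLN1 and GAA each held TCACGTGA at a second place. For LAMP1 it lay at chr13:113297226-113297255 (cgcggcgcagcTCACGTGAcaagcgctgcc), for MCOLN1 at chr19:7522598-7522627 (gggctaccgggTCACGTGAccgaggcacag) and for GAA at chr17:80101538-80101567 (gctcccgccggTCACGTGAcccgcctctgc).

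**Figure D1:**
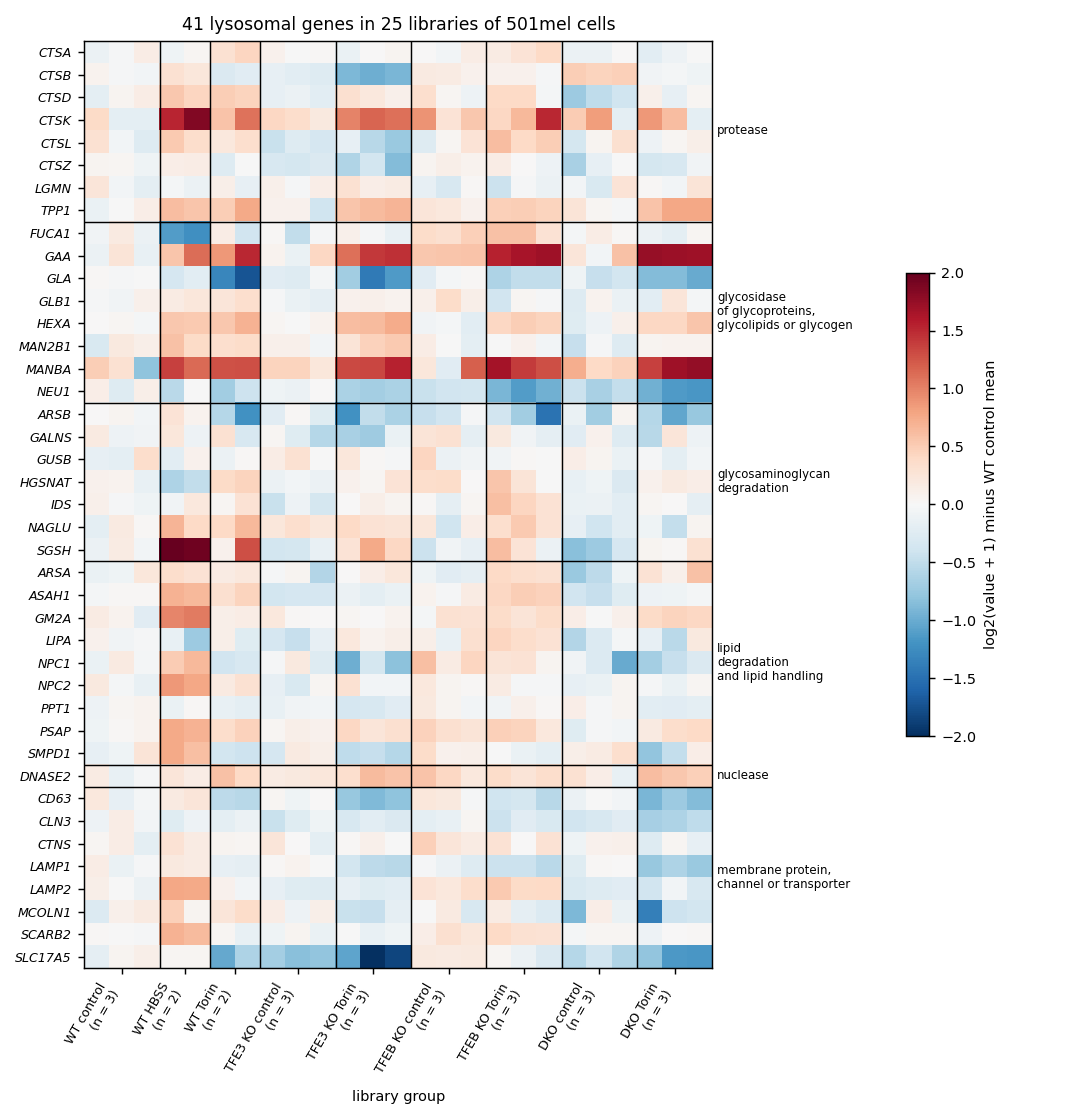
Each row is 1 of the 41 members, grouped by role, and each column 1 of the 25 libraries. Colour gives log2(value + 1) minus the mean of the 3 WT control libraries, drawn from -2 to 2 with values beyond that at the limit colour, and the members do not move as 1 block: SGSH, MANBA and GAA turn red in treated libraries while GLA and CD63 turn blue with Torin.

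The first question was which members respond when amino acids are removed. In WT cells in HBSS 19 of 41 members were higher and 3 were lower than in WT control by limma with Benjamini-Hochberg adjustment, on log2(value + 1), at an adjusted p under 0.05. Across all genes tested 23.6% were higher and 24.7% lower, against 46.3% and 7.32% of the members. Leaving aside CTSK, which rests on a few reads, the largest increases were in degradation of heparan sulfate (SGSH), mannose-containing glycans (MANBA) and gangliosides (GM2A), whereas fucosidase FUCA1 and the acetyltransferase HGSNAT fell. The median difference of the members was 0.26 on the log2 scale and that of all genes -0.03, and single members ranged from -1.17 to 1.99.

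SGSH, the sulfamidase that removes sulfate from heparan sulfate, was at 14.3, 17.6 and 15.0 in WT control and at 67.7 and 62.6 in HBSS. No library of one group came near the other, and the log2 difference, with its standard error, was 1.99 ± 0.23 (adjusted p = 2.23e-09, limma). The gene lies at chr17:80206716-80220923, on the minus strand of GRCh38, and its last 500 bases overlap CARD14 on the opposite strand, so its reads are assigned with some uncertainty where counting ignored strand. MANBA, the beta-mannosidase at chr4:102630770-102760994, was at 6.25, 5.34 and 1.95 in control and 12.2 and 10.3 in HBSS, a log2 difference of 1.25 ± 0.29 (adjusted p = 0.000433). GAA, acid alpha-glucosidase, which digests glycogen, was at 2.79, 3.96 and 2.73 and 5.06 and 7.95, with a log2 difference of 0.84 ± 0.25 (adjusted p = 0.00424). The groups did not overlap for either enzyme, but without WT HBSS replicate 2 the GAA difference was 0.56 (adjusted p = 0.152). HEXA and MAN2B1, the other 2 glycosidases that rose, had log2 differences of 0.53 and 0.48, and NAGLU, which acts on heparan sulfate beside SGSH, one of 0.54. Without WT HBSS replicate 1 the differences of MAN2B1 and NAGLU were 0.38 (adjusted p = 0.0779) and 0.40 (adjusted p = 0.136), and without WT control replicate 1 that of MAN2B1 was 0.33 (adjusted p = 0.0506).

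FUCA1, the fucosidase of glycoprotein turnover, went the other way, from 23.7, 28.3 and 22.6 in control to 10.8 and 10.1 in HBSS. Both HBSS libraries were below every control library, and the log2 difference was -1.17 ± 0.16 (adjusted p = 4.8e-08). It is the 1 member that fell by more than 1 on the log2 scale, and 1 annotated pseudogene carries its name. HGSNAT, the membrane acetyltransferase of heparan sulfate breakdown, was at 33.2, 32.7 and 27.9 in control and 20.0 and 22.0 in HBSS, a log2 difference of -0.55 ± 0.14 (adjusted p = 0.00126). SGSH and HGSNAT act in the same degradation pathway and changed in opposite directions. LIPA, acid lipase, was at 22.0, 19.8 and 20.5 against 18.6 and 12.1, and its call was borderline (log2 difference -0.44 ± 0.19, adjusted p = 0.0499). It was lost without any 1 of the control libraries, for example at -0.40 (adjusted p = 0.115) without WT control replicate 1. Without the second HBSS library the difference was -0.15.

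Of the 9 proteins of lipid turnover 6 were higher in HBSS and 1, LIPA, was lower. GM2A, the activator that lifts GM2 ganglioside to its hydrolase, was at 40.6, 37.6 and 30.4 in control and 72.0 and 75.1 in HBSS, with a log2 difference of 1.01 ± 0.13 (adjusted p = 2.71e-09). PSAP, the precursor of the saposins that help sphingolipid hydrolases, was at 1116, 1199 and 1242 and 2005 and 1924, with a log2 difference of 0.73 ± 0.08 (adjusted p = 7.3e-11). All HBSS libraries stood above all controls for both activators. NPC2, which carries cholesterol in the lumen, differed by 0.82, acid sphingomyelinase SMPD1 by 0.68, acid ceramidase ASAH1 by 0.67, and the cholesterol exporter NPC1 by 0.58. The NPC1 call was lost without WT HBSS replicate 2, at 0.51 (adjusted p = 0.123).

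Among proteases 4 of 8 were higher in HBSS and none lower. The tripeptidyl peptidase TPP1 differed by 0.59, and CTSD, the aspartic protease cathepsin D, was at 112, 133 and 143 in control and 186 and 173 in HBSS, a log2 difference of 0.48 ± 0.12 (adjusted p = 0.00142). CTSB, cathepsin B, differed by 0.27. CTSK, cathepsin K, had 0 to 3 reads per control library and 10 to 15 in HBSS, and although it passed the test (adjusted p = 6.24e-05) no fold is given against so few reads. Of the membrane group 3 of 8 were higher. LAMP2, a main glycoprotein of the lysosomal membrane, was at 156, 143 and 132 in control and 245 and 242 in HBSS, a log2 difference of 0.76 ± 0.09 (adjusted p = 1.05e-09). SCARB2, the receptor that carries glucocerebrosidase to lysosomes, differed by 0.66. CD63, at 4308, 3346 and 3617 in control and 4220 and 4419 in HBSS, overlapped between groups (log2 difference 0.21 ± 0.08, adjusted p = 0.0291). Its call was lost without WT control replicate 2, at 0.13 (adjusted p = 0.192), and without WT control replicate 3, at 0.19 (adjusted p = 0.0886). LAMP1, the other main LAMP glycoprotein, was at 479, 393 and 424 against 491 and 485 and did not pass the test (log2 difference 0.18 ± 0.09, adjusted p = 0.0785).

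**Figure D2:**
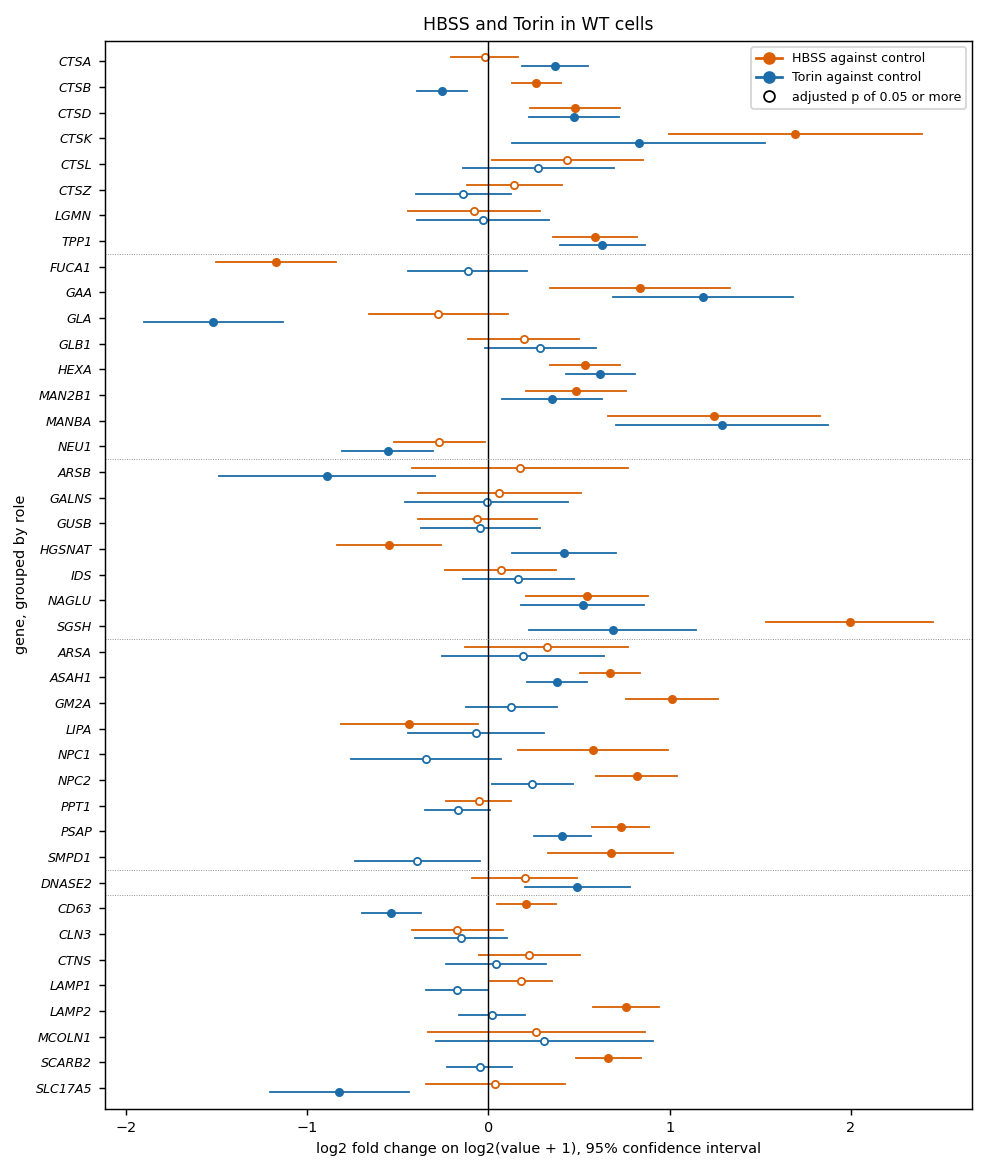
Log2 difference from WT control, on log2(value + 1), with its 95% confidence interval, for each member in HBSS and in Torin. Filled points have an adjusted p under 0.05, and both sets use the same 3 control libraries. SGSH reached 1.99 in HBSS, and GLA reached -1.52 in Torin.

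Torin inhibits mTOR directly, and the next question was which members it changed in WT cells. Here 14 of 41 members were higher and 6 lower, beside 20.5% higher and 23.4% lower of all genes. None of the 8 members of the membrane group rose: CD63 and SLC17A5 fell and the other 6 did not pass the test. HGSNAT, a membrane enzyme counted with glycosaminoglycan breakdown, did rise. The median difference of the members was 0.13 and that of all genes was 0.00.

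MANBA and GAA had the largest increases with Torin. MANBA was at 11.5 and 11.6 in Torin (log2 difference 1.29 ± 0.29, adjusted p = 0.00037), and GAA at 6.56 and 10.7 (log2 difference 1.19 ± 0.25, adjusted p = 0.000103). Both enzymes stood above all 3 of their controls in each Torin library. SGSH was at 16.6 and 39.3 in WT Torin replicates 2 and 3, so that one library lay within the control range and the other far above it. Its log2 difference was 0.69 ± 0.23 (adjusted p = 0.0134), and 0.09 (adjusted p = 0.809) without replicate 3. HEXA (0.62), TPP1 (0.63), CTSD (0.47) and the lysosomal nuclease DNASE2 (0.49) also rose. The others that rose were NAGLU (0.52), HGSNAT (0.42), PSAP (0.41), ASAH1 (0.38), CTSA (0.37) and MAN2B1 (0.35). The calls of NAGLU, HGSNAT, MAN2B1 and CTSK were lost without WT Torin replicate 3, at 0.40 (adjusted p = 0.151), 0.39 (adjusted p = 0.1), 0.33 (adjusted p = 0.143) and an adjusted p of 0.328, and that of DNASE2 without replicate 2, at 0.40 (adjusted p = 0.0791). CTSK passed the test on 3 to 6 reads per Torin library.

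GLA, the alpha-galactosidase that digests globotriaosylceramide, had the largest change of any member with Torin and it was a decrease. It was at 19.9, 19.2 and 19.5 in control and 7.27 and 5.21 in Torin, a clear gap between the groups, with a log2 difference of -1.52 ± 0.19 (adjusted p = 6.25e-09). The gene lies at chrX:101393273-101408012 on the minus strand. SLC17A5, which exports sialic acid from the lysosome, went from 24.0, 28.3 and 29.7 to 12.9 and 17.3 (log2 difference -0.82 ± 0.19, adjusted p = 0.000422). NEU1, the sialidase that releases that sialic acid, went from 105, 79.4 and 104 to 58.4 and 71.3 (log2 difference -0.56 ± 0.12, adjusted p = 0.00027). Sialidase and exporter thus fell together, with no overlap between groups for either. CD63, a tetraspanin of lysosomes and melanosomes, fell from 4308, 3346 and 3617 to 2610 and 2542 (log2 difference -0.54 ± 0.08, adjusted p = 8.57e-07). ARSB, the arylsulfatase of dermatan sulfate, was at 5.75, 5.94 and 5.46 in control and 3.52 and 1.90 in Torin, a log2 difference of -0.89, and of -0.57 (adjusted p = 0.237) without WT Torin replicate 3.

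HBSS and Torin were also compared with each other, which needs no control library. Members named for this comparison were chosen after the values were seen. In HBSS 15 members were higher than in Torin and 3 lower, beside 26.1% and 23.1% of all genes. Of the membrane group 5 of 8 were higher in HBSS and none lower, and of the lipid proteins 6 of 9 were higher and none lower. The largest gaps were SGSH (1.31 ± 0.25, adjusted p = 3.88e-05), GLA (1.24 ± 0.21, adjusted p = 2.6e-06) and SMPD1 (1.07 ± 0.19, adjusted p = 7.51e-06). Acid sphingomyelinase SMPD1 was at 59.6 and 53.4 in HBSS and 26.9 and 25.8 in Torin, with 31.1, 32.9 and 41.8 in control. For CD63 the gap was 0.75 ± 0.09, for SLC17A5 0.86 ± 0.21 and for LAMP2 0.74 ± 0.10. HGSNAT and FUCA1 were lower in HBSS than in Torin, with log2 differences of -0.97 and -1.06. HGSNAT was at 41.0 and 42.9 in Torin, above its controls, whereas it fell below them in HBSS, and CTSB, at 640, 599 and 588 in control, was at 754 and 710 in HBSS and 498 and 521 in Torin.

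**Figure D3:**
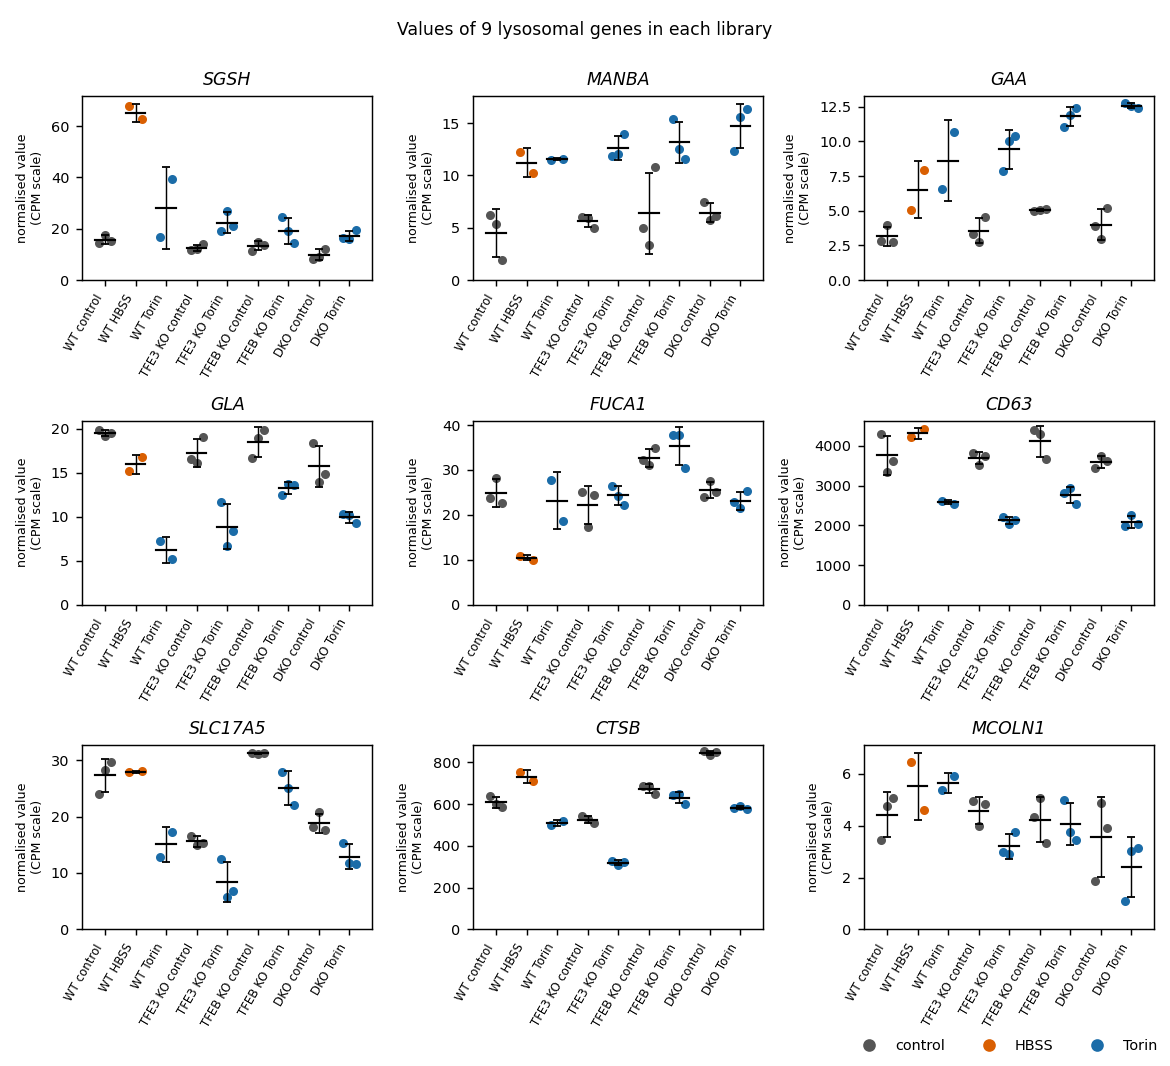
Normalised value (CPM scale, linear axis from 0) of 9 members in each library of the 9 groups, with the mean and SD of each group. SGSH stands highest in HBSS, GLA and SLC17A5 fall with Torin in WT, and CTSB is lowest in TFE3 KO with Torin.

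The response to Torin was then followed in each genotype against that genotype's own control. In TFE3 KO 13 members were higher and 11 lower, beside 25.4% and 26.0% of all genes. In TFEB KO 10 were higher and 4 lower, beside 17.4% and 21.0%. In DKO 13 were higher and 9 lower, beside 25.4% and 26.2%. The members' own shares were 31.7% and 26.8% in TFE3 KO, 24.4% and 9.76% in TFEB KO, and 31.7% and 22.0% in DKO. These 3 comparisons and that in WT have separate control libraries. The WT controls, also used for HBSS, were labelled as non-treated without a time. The knockout controls were labelled as 12 h controls, so the WT response rests on a differently labelled baseline. The count in TFEB KO was 9 when TFEB KO control replicate 2 was left out.

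Of the 41 members 5 were higher with Torin in all 4 genotypes: GAA, MANBA, HEXA, TPP1 and ASAH1. GLA, NEU1 and CD63 were lower in all 4. Of all genes tested 10.6% were higher in all 4 and 14.2% lower in all 4. The 5 of 41 members that were higher are thus near the share of all genes, and the 3 of 41 that were lower are below it. GAA differed by 1.19 in WT, 1.21 in TFE3 KO, 1.07 in TFEB KO and 1.46 in DKO, and MANBA by 1.29, 1.03, 1.06 and 1.08 in the same order. In DKO libraries, without functional TFE3 or TFEB by label, GAA was at 3.90, 2.96 and 5.17 in control and 12.8, 12.5 and 12.4 with Torin, and MANBA at 7.48, 5.75 and 6.10 and 12.3, 15.6 and 16.3. The groups stayed apart for both enzymes. Some of the calls behind these lists were borderline: in TFEB KO that of GLA was lost without any of 5 of the 6 libraries, for example at -0.40 (adjusted p = 0.103) without TFEB KO control replicate 3, and also under median-of-ratios rescaling. TPP1 in TFEB KO was at 0.24 (adjusted p = 0.0978) without that library, and ASAH1 in TFE3 KO at 0.18 (adjusted p = 0.07) without TFE3 KO Torin replicate 1. No member was higher in one genotype and lower in another, and 10 members passed the test in no genotype. The shares of all genes with these patterns were not counted, so neither count is read as a trait of the members.

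SGSH went from 11.8, 12.0 and 14.0 to 19.1, 26.9 and 21.0 with Torin in TFE3 KO (log2 difference 0.77 ± 0.20, adjusted p = 0.0017) and from 8.26, 9.06 and 12.2 to 16.3, 15.9 and 19.5 in DKO (0.76 ± 0.20, adjusted p = 0.00187), and differed by 0.48 in TFEB KO (adjusted p = 0.061). ARSA, the arylsulfatase that acts on sulfatide, rose in TFEB KO from 7.74, 6.93 and 7.13 to 11.2, 10.7 and 10.4 (0.51 ± 0.20, adjusted p = 0.0387) and in DKO from 4.52, 5.40 and 7.67 to 10.3, 8.91 and 12.8 (0.78 ± 0.20, adjusted p = 0.00102). The call of ARSA in TFEB KO was lost without any 1 of its 6 libraries, with log2 differences of 0.48 to 0.55 and adjusted p from 0.0523 to 0.0968. The heparan and sulfatide enzymes thus rose in some knockouts and missed the threshold in others. HEXA, the hexosaminidase subunit that works with GM2A, differed by 0.62 in WT, 0.63 in TFE3 KO, 0.56 in TFEB KO and 0.54 in DKO. Acid sphingomyelinase SMPD1 fell in TFE3 KO and DKO (-0.50 and -0.58), and NPC1 fell in TFE3 KO (-0.68). In DKO SMPD1 was at 38.0, 39.0 and 44.1 in control and 19.8, 24.8 and 38.6 with Torin (adjusted p = 0.00158).

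GLA, the member with the largest decrease in WT, was at 16.6, 16.1 and 19.0 in TFE3 KO control and 11.7, 6.68 and 8.32 with Torin (-0.91 ± 0.17, adjusted p = 1.32e-05), and in DKO at 18.4, 13.9 and 14.9 and 10.3, 10.2 and 9.25 (-0.61 ± 0.17, adjusted p = 0.0025). NEU1 differed by -0.59 in TFE3 KO, -0.60 in TFEB KO and -0.56 in DKO. CTSB fell in WT, TFE3 KO and DKO, with log2 differences of -0.26, -0.71 and -0.54, and differed by -0.10 in TFEB KO (adjusted p = 0.221).

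No member of the membrane group rose with Torin in any genotype, which describes the listed members and not lysosomal membrane proteins at large. Membrane genes outside the members went both ways: SLC29A3, P2RX4 and CLCN7 were higher and SLC66A1 and LITAF lower in all 4 genotypes. The membrane enzyme HGSNAT rose in WT (0.42) and DKO (0.31). The HGSNAT call in DKO was borderline. It was lost without DKO control replicate 3, at 0.25 (adjusted p = 0.142), and also without DKO control replicate 1 or any 1 of the DKO Torin libraries. CD63 went from 3439, 3734 and 3615 to 1974, 2254 and 2040 in DKO, and its log2 difference was -0.80 in TFE3 KO, -0.57 in TFEB KO and -0.78 in DKO. LAMP1 fell in the 3 knockouts, with log2 differences of -0.52, -0.34 and -0.63, and differed by -0.17 in WT, where it missed the threshold (adjusted p = 0.0945). SLC17A5 differed by -0.89 in TFE3 KO and -0.52 in DKO, and by -0.31 in TFEB KO (adjusted p = 0.144). A call in one genotype and not in another does not show that they differ, so the difference between responses was tested directly.

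A difference of the Torin response from that of WT passed the test for 1 member in each knockout, beside 1.06% of all genes in TFE3 KO, 1.16% in TFEB KO and 0.506% in DKO. In TFE3 KO it was CTSB, which went from 541, 527 and 507 in control to 327, 308 and 324 with Torin, and its log2 response minus that in WT was -0.46 ± 0.09 (adjusted p = 0.00389). In TFEB KO it was GLA, at 16.6, 18.9 and 19.9 in control and 12.4, 13.7 and 13.6 with Torin, and its decrease was smaller than in WT, with a difference in log2 response of 1.07 ± 0.25 (adjusted p = 0.0207). In DKO it was LAMP1, at 362, 437 and 431 in control and 255, 281 and 258 with Torin, a difference in log2 response from WT of -0.45 ± 0.11 (adjusted p = 0.0493). Each lost its call without WT Torin replicate 3, at -0.43 (adjusted p = 0.0556) for CTSB, 0.86 (adjusted p = 0.188) for GLA and -0.47 (adjusted p = 0.165) for LAMP1, and LAMP1 also lost it without any 1 of the other 4 Torin libraries of WT and DKO.

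**Figure D4:**
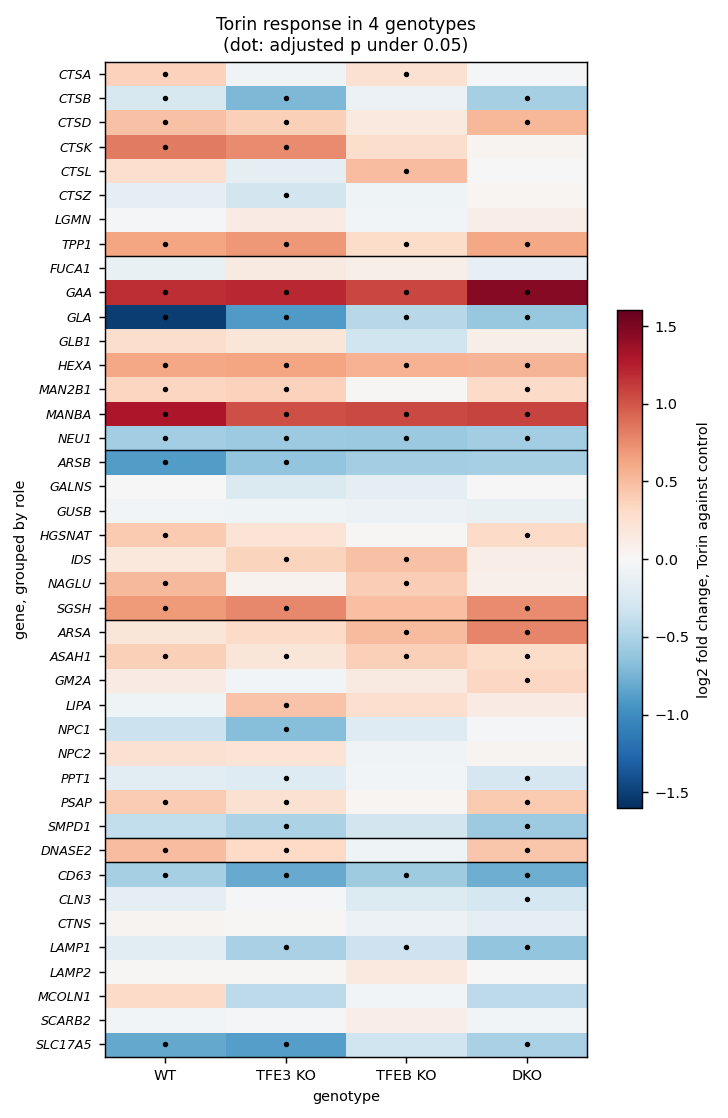
Log2 difference of Torin from the control of the same genotype, for 41 members (rows) in the 4 genotypes (columns), with a dot where the adjusted p is under 0.05. GAA and MANBA are higher and GLA, NEU1 and CD63 lower in all 4 columns.

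Loss of the factors was next examined without drug. The 3 knockouts are compared with the same WT control libraries, which were labelled as non-treated while the knockout controls were labelled as 12 h controls. In TFE3 KO no member was higher and 3 were lower, beside 3.57% and 5.84% of all genes. In TFEB KO 4 were higher and 1 lower, beside 7.46% and 7.18%. In DKO 1 was higher and 6 lower, beside 5.64% and 7.49%. The members' own shares, higher and lower, were 0% and 7.32% in TFE3 KO, 9.76% and 2.44% in TFEB KO, and 2.44% and 14.6% in DKO. In each knockout most members, like most of all genes tested, did not pass the test.

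SLC17A5 had the largest difference in TFE3 KO, at 16.6, 14.9 and 15.3 against 24.0, 28.3 and 29.7 in WT control (log2 difference -0.77 ± 0.17, adjusted p = 0.00142). In DKO the sialic acid exporter was at 18.1, 20.7 and 17.7 (log2 difference -0.51 ± 0.17, adjusted p = 0.0365) and in TFEB KO at 31.2, 31.1 and 31.3, where it differed by 0.19 (adjusted p = 0.509). Acid ceramidase ASAH1 was at 151, 158 and 159 in WT, 121, 124 and 124 in TFE3 KO and 119, 113 and 132 in DKO, with differences of -0.34 ± 0.07 (adjusted p = 0.000994) and -0.37 ± 0.07 (adjusted p = 0.000342). In neither knockout did ASAH1 overlap with WT. SGSH was at 8.26, 9.06 and 12.2 in DKO (log2 difference -0.63 ± 0.20, adjusted p = 0.0321), CTSD at 77.6, 90.3 and 96.9 (-0.54 ± 0.11, adjusted p = 0.000575) and NEU1 at 70.4, 60.3 and 68.4 (-0.52 ± 0.11, adjusted p = 0.000714). In DKO 4 of 41 members were called when WT control replicate 2 was left out. Sulfamidase, cathepsin D and sialidase were lower in these DKO cells than in WT, and NEU1 was also lower in TFEB KO (log2 difference -0.40, adjusted p = 0.0107). The SGSH call in DKO was lost without WT control replicate 2 or 3 or DKO control replicate 1 or 2. Without DKO control replicate 1 SGSH differed by -0.52 (adjusted p = 0.142). The SLC17A5 call in DKO was lost without WT control replicate 2 or 3 or DKO control replicate 1 or 3.

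The members that rose in TFEB KO were PSAP, LAMP2, DNASE2 and SCARB2. PSAP was at 1634, 1474 and 1413 against 1116, 1199 and 1242 in WT (log2 difference 0.34 ± 0.07, adjusted p = 0.000486), and LAMP2 at 173, 166 and 182 against 156, 143 and 132 (0.28 ± 0.08, adjusted p = 0.0149). DNASE2 was at 36.2, 32.4 and 28.0 against 27.1, 21.8 and 23.8 (0.39 ± 0.13, adjusted p = 0.0295). SCARB2 was at 129, 146 and 137 against 119, 117 and 116 (0.23 ± 0.08, adjusted p = 0.0468). The sialidase NEU1, at 69.5, 73.1 and 73.8 in TFEB KO, was the 1 that fell. Of these 5 calls 1 was left without WT control replicate 3 and 3 without TFEB KO control replicate 2. In DKO LAMP2 was lower than in WT (log2 difference -0.26, adjusted p = 0.0233), but that call was lost without WT control replicate 1, at -0.20 (adjusted p = 0.14).

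CTSB gave the one increase in DKO and a decrease in TFE3 KO. It was at 854, 833 and 847 in DKO, 687, 686 and 648 in TFEB KO, 640, 599 and 588 in WT and 541, 527 and 507 in TFE3 KO. The log2 difference from WT was 0.47 ± 0.06 in DKO (adjusted p = 7.16e-08) and -0.21 ± 0.06 in TFE3 KO (adjusted p = 0.0168). TFEB KO and WT, neighbours in that order, did not differ by the test (log2 difference 0.15 ± 0.06, adjusted p = 0.103). The decrease in TFE3 KO was less secure than the increase in DKO. Its call was lost without TFE3 KO control replicate 3, at -0.19 (adjusted p = 0.0937), and also without TFE3 KO control replicate 2 or WT control replicate 1.

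TFE3 KO and TFEB KO were compared with each other, with members again named after their values were seen. In TFE3 KO 9 members were lower than in TFEB KO and 1 was higher, beside 15.6% and 14.3% of all genes. SLC17A5 had the largest gap (-0.96 ± 0.17, adjusted p = 1.94e-05), followed by FUCA1 (-0.55 ± 0.15, adjusted p = 0.00296) and LAMP2 (-0.50 ± 0.08, adjusted p = 3.57e-06). The others that were lower were ASAH1 (-0.42), CTSZ (-0.40), CTSB (-0.36), HGSNAT (-0.34), SCARB2 (-0.28) and PSAP (-0.26). NEU1 was the 1 member that was higher, by 0.34 (adjusted p = 0.0179). The HGSNAT call was lost without TFEB KO control replicate 2, at -0.27 (adjusted p = 0.168), and without any 1 of the TFE3 KO control libraries. Those of FUCA1 and NEU1 were also lost without some single libraries.

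The knockouts were also compared with WT under Torin, the condition in which TFE3 and TFEB are known to enter the nucleus, and members were again named after their values were seen. In TFE3 KO 8 members were lower and none higher, beside 6.23% and 3.41% of all genes. In TFEB KO 6 were higher and 2 lower, beside 9.39% and 8.56%. In DKO 1 was higher and 10 lower, beside 5.03% and 7.03%. All 3 comparisons use the same 2 WT Torin libraries, and without WT Torin replicate 3 the members called were 2 in TFE3 KO, 4 in TFEB KO and 3 in DKO. The count was 5 in TFE3 KO without TFE3 KO Torin replicate 3, and 7 in DKO without WT Torin replicate 2 or without DKO Torin replicate 1.

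In TFE3 KO with Torin the members that were lower were led by SLC17A5 (-0.83 ± 0.19, adjusted p = 0.00242), CTSL (-0.76 ± 0.20, adjusted p = 0.0194) and CTSB (-0.67 ± 0.07, adjusted p = 3.28e-10). CTSL is the cysteine protease cathepsin L, and 6 annotated pseudogenes carry its name. SLC17A5 was at 12.5, 5.79 and 6.87 against 12.9 and 17.3 in WT Torin, and CTSB at 327, 308 and 324 against 498 and 521. ASAH1 (-0.52), CTSZ (-0.47), CTSA (-0.39), LAMP1 (-0.31) and CD63 (-0.28) completed the set. Without WT Torin replicate 3 the calls of CTSB and ASAH1 held, and SLC17A5 differed by -0.63 (adjusted p = 0.122).

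In TFEB KO with Torin most of the members called were higher than in WT. GLA was at 12.4, 13.7 and 13.6 against 7.27 and 5.21 in WT Torin (log2 difference 0.99 ± 0.19, adjusted p = 0.000166), and SLC17A5 at 27.9, 25.1 and 22.0 against 12.9 and 17.3 (0.70 ± 0.19, adjusted p = 0.00759). FUCA1 (0.60), LAMP2 (0.42), SCARB2 (0.38) and CTSB (0.31) were also higher. NEU1 (-0.44) and LAMP1 (-0.29) were lower.

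In DKO with Torin MCOLN1, the calcium channel of the lysosomal membrane that is also called mucolipin-1, had the largest decrease. It was at 5.39 and 5.92 in WT Torin and 1.08, 3.03 and 3.15 in DKO Torin, a gap without overlap between groups. The log2 difference was -1.03 ± 0.30 (adjusted p = 0.0157). Much of its size rested on the lowest DKO library: without DKO Torin replicate 1 the difference was -0.70 and the call was lost (adjusted p = 0.149). The gene lies at chr19:7522624-7534009 and its last 500 bases overlap PNPLA6 on the same strand. MCOLN1 did not pass the test for Torin in WT, where it was at 3.45, 4.75 and 5.07 in control (log2 difference 0.31 ± 0.30, adjusted p = 0.424). LAMP1 was at 385 and 378 in WT Torin and 255, 281 and 258 in DKO Torin (-0.53 ± 0.09, adjusted p = 1.43e-05). CTSA, the carboxypeptidase that also stabilises NEU1 and whose 3′ end overlaps PLTP on the opposite strand, was at 216 and 234 and 151, 162 and 174 (-0.47 ± 0.09, adjusted p = 0.000239). NEU1 itself was at 58.4 and 71.3 and 48.8, 43.0 and 42.1 (-0.52 ± 0.12, adjusted p = 0.00297). NAGLU (-0.69), CTSD (-0.48), ASAH1 (-0.45), CLN3 (-0.44), CD63 (-0.30) and LAMP2 (-0.27) were lower too, and GLA was higher (0.61).

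Members with and without the E-box letters printed above were set side by side in this comparison. Of the 10 members with CACGTG, 7 were lower in DKO than in WT under Torin: LAMP1, MCOLN1, CTSA, CLN3, CTSD, NEU1 and CD63. Of the 19 with a promoter entry and no CACGTG, none was lower and 1, GLA, was higher. The median log2 difference was -0.46 for the former and -0.10 for the latter, and the remaining 3 that were lower (NAGLU, ASAH1 and LAMP2) had no promoter entry. Among all tested genes 10.9% of those with CACGTG, 15.1% of those with TCACGTGA and 6.95% of those without CACGTG were lower in the same comparison. GAA, which holds TCACGTGA in 2 places, did not pass the test, at 6.56 and 10.7 in WT Torin and 12.8, 12.5 and 12.4 in DKO Torin (log2 difference 0.53 ± 0.25, adjusted p = 0.164). GALNS, with the same letters, differed by -0.13 (adjusted p = 0.774) and ARSB by 0.10 (adjusted p = 0.872). Most other comparisons were less divided. In DKO without drug 2 of 10 members with CACGTG and 1 of 19 without were lower, and in TFE3 KO under Torin 3 of 10 and 3 of 19 were. In TFEB KO under Torin 2 of 10 were lower and none of 19, while 4 of the 19 were higher. For Torin in WT 3 of 10 were higher and 3 lower, against 3 and 2 of the 19. MITF, which can bind the same letters, was also lower in DKO than in WT, with log2 differences of -0.34 ± 0.07 (adjusted p = 0.000448) under Torin and -0.46 ± 0.06 (adjusted p = 1.79e-07) without drug, and its part in these differences was not tested. No test was made between the classes, since the letters were searched with the results known. Of the 7, 2 (CTSA and LAMP1) held their call without WT Torin replicate 3 and 3 (CTSA, LAMP1 and NEU1) without WT Torin replicate 2.

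**Figure D5:**
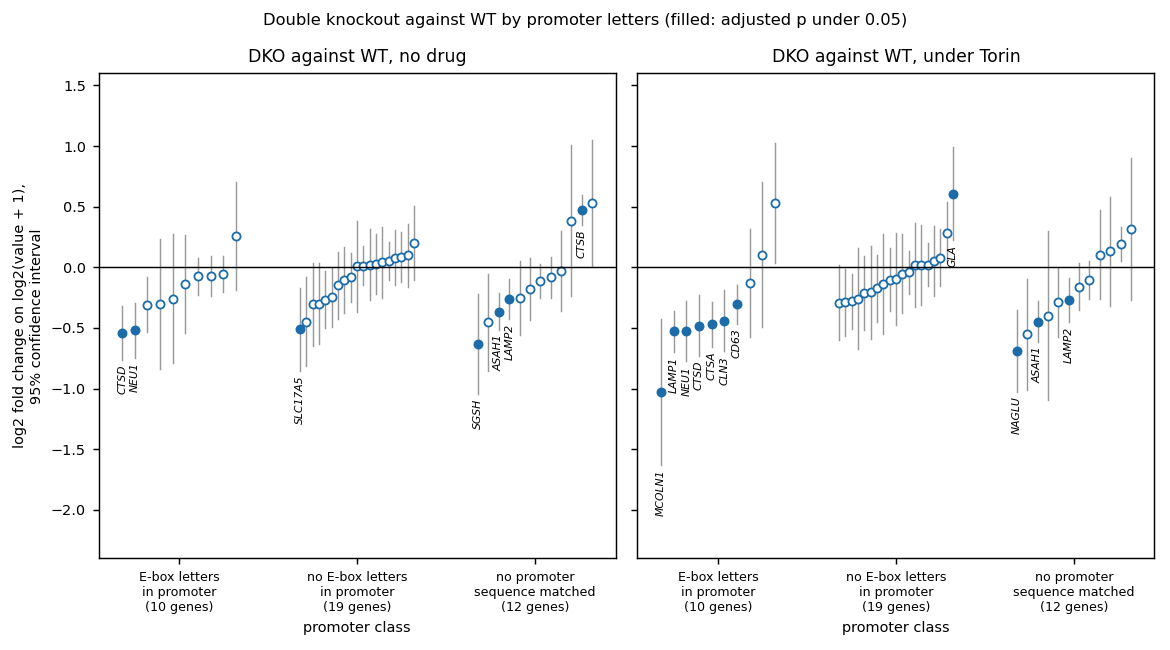
Log2 difference of DKO from WT without drug and with Torin for 10 members with CACGTG in the promoter, 19 with a promoter entry and no such letters, and 12 without an entry. Each point is a member, filled where the adjusted p is under 0.05, and with Torin 7 of the 10 are lower and none of the 19 is.

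Some members gave no call in any of the 16 comparisons: CTNS, the cystine exporter, GALNS, which desulfates keratan sulfate, GLB1, the beta-galactosidase, GUSB, beta-glucuronidase, and LGMN, the asparaginyl endopeptidase. The share of all genes without a call in the 16 was not counted, so this list is not read as a trait of the members. In WT control GLB1 was at 24.0, 23.2 and 26.4 and in HBSS at 27.6 and 28.7, a log2 difference of 0.19 with a 95% interval of -0.11 to 0.50. For LGMN the values were 19.6, 15.8 and 14.2 and 15.9 and 15.1, a difference of -0.08 with an interval of -0.45 to 0.29, and missing the threshold does not show that these genes were stable. GUSB has 19 annotated pseudogenes of its name, LGMN has 1, and CTNS overlaps P2RX5-TAX1BP3 on the opposite strand, so the reads of these genes are less certain. MCOLN1 passed the test in none of the 5 treatment comparisons or the 3 knockout comparisons without drug. The channel was at 6.44 and 4.60 in HBSS (log2 difference 0.26 ± 0.30, adjusted p = 0.49), 4.95, 3.99 and 4.83 in TFE3 KO, 4.33, 5.06 and 3.32 in TFEB KO and 1.87, 4.88 and 3.91 in DKO control, all overlapping with WT control. With Torin it was at 2.97, 2.89 and 3.75 in TFE3 KO and averaged 4.08 ± 0.815 (SD, n = 3) in TFEB KO.

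CTSD, whose promoter holds CACGTG, was at 182 and 175 in WT Torin and 138, 115 and 132 in DKO Torin, so the DKO libraries with drug lay within the WT control range. It still rose with Torin in DKO, from 77.6, 90.3 and 96.9 in the DKO control, and passed the test there. In TFE3 KO cathepsin D was at 115, 119 and 110 in control and 161, 149 and 138 with Torin (0.38 ± 0.11, adjusted p = 0.00442), and in TFEB KO at 163, 132 and 120 and 169, 170 and 125 (0.16 ± 0.11, adjusted p = 0.274). LAMP1 was at 440, 451 and 430 in TFE3 KO control and 332, 298 and 292 with Torin, and at 424, 398 and 360 and 321, 318 and 295 in TFEB KO. In each of the 3 knockouts LAMP1 with Torin lay below its own control in every library. CTSK never exceeded 15 reads in a library. MCOLN1, GAA, MANBA and CTSK were under 5 in WT control on average, where a few reads decide the values.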

How the data were processed

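RNA from 501mel cells was sequenced as QuantSeq Forward libraries, which sample 3′ ends, so values are not divided by gene length. According to the submitters' processing notes and methods, reads were checked with FastQC 0.11.9, trimmed with cutadapt 2.10, aligned to hg38 with STAR 2.7.8a and normalised with edgeR. The counter, its strand setting and the filter on genes are not given in the sources used here. The authors deposited 1 table of a normalised signal on the CPM scale for 27 libraries, and dividing each column by the step of 1 read gave whole reads for 100% of values, within 0.02 reads. The 2 identical columns were left out.

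Values were tested as log2(value + 1) with limma 3.58.1 (R 4.3.3), with all 25 libraries in 1 fit and moderated, trended and robust variances, on 13052 genes that reached a value of 1 in 3 or more libraries. The other 471 genes were not tested. Adjustment was by Benjamini-Hochberg over all genes tested in each of 16 comparisons, and members with an adjusted p under 0.05 are called. Fold changes on this scale understate the change of low genes. The processing was varied by adding 0.1 in place of 1, by dropping the filter or raising it to 5, by rescaling with median-of-ratios factors, by testing the recovered reads with edgeR 4.0.16 and DESeq2 1.42.0, by using the replicate number as a block, by fitting only the libraries compared, by keeping the identical column in either group, and by leaving out each library in turn. edgeR called 6136 genes for HBSS and 5494 for Torin in WT. The script was tested on simulated data.

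Given in full were, for the treatment and the untreated knockout comparisons, up to 4 called members in each direction with the largest change, then MCOLN1, LAMP1, CTSD and CTSK, and members called in a difference of Torin responses. The members and lists were chosen with earlier results of these data known. Gene positions are those of GRCh38.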

Additional observations from a re-analysis of the deposited data

Results flagged for a closer look

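The response to Torin differed between a knockout and WT, by a test of the difference itself (limma interaction, Benjamini-Hochberg adjustment over all genes), for 3 members. CTSB responded lower in TFE3 KO than in WT, with a difference in log2 response of -0.46 (adjusted p = 0.00389). GLA responded higher in TFEB KO than in WT, with a difference of 1.07 (adjusted p = 0.0207), which is a smaller decrease. LAMP1 responded lower in DKO than in WT, with a difference of -0.45 (adjusted p = 0.0493). All 3 use the same 2 WT Torin libraries, and each call was lost without WT Torin replicate 3. No group of members had more than 3 libraries, so single libraries that stand apart were not tested for.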

How the results depend on the processing

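WT HBSS and WT Torin have 2 libraries each, which limits every result that uses them, and a member with a few reads per library can show only large changes. Of 264 counts of called members under an alternative, 224 were within 1.5 times the reported count and 40 were not. No called member changed sign under any alternative, and of 60 named member results that were called, 42 kept the call under each alternative run. For HBSS against control, leaving out 1 library gave 19 to 21 members, and for Torin in WT 14 to 20. The identical column had 12917 genes with a read, beside 12895 and 12901 in the WT HBSS libraries used and 13188 and 13181 in those of WT Torin. Which group it belongs to was not tested. With the identical column kept as WT Torin replicate 1, the count fell to 9 for Torin in TFEB KO, 1 for TFEB KO against WT, 4 for DKO against WT, 5 for TFE3 KO against TFEB KO, 8 for HBSS against Torin, and 0 for each difference in Torin response. With only the libraries compared it was 3 for TFEB KO against WT and 0 for the DKO difference in response. That DKO difference was also 0 with a pseudocount of 0.1 and with no filter. DESeq2 gave 2, 0 and 2 differences in response in TFE3 KO, TFEB KO and DKO. Leaving out 1 library gave 9 to 13 members for Torin in TFEB KO, 1 to 4 for TFEB KO against WT, 4 to 8 for DKO against WT, and 8 to 12 for TFE3 KO against TFEB KO. Under Torin it gave 2 to 8 for TFE3 KO, 4 to 8 for TFEB KO and 3 to 10 for DKO against WT, the lowest each time without WT Torin replicate 3. The differences in response ranged from 0 to 3 in TFE3 KO, 0 to 2 in TFEB KO and 0 to 1 in DKO, and were 3 without WT control replicate 1 in TFE3 KO and 2 without TFEB KO control replicate 3 in TFEB KO. The replicate block gave 20 members for HBSS, 21 for Torin in WT and 12 for DKO against WT under Torin, and moved no count by over 1.5 times. Same-numbered libraries share only a number: their deviations from the group means correlated at -0.192 to 0.143, and of the comparisons with 3 pairs none had every correlation over 0.1 and in none did every library correlate best with its own number. Where leaving out 1 library left a single one in a group, that library was assumed to vary like the other groups. The causes were not tested.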

Other observations

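Other lysosomal genes, from a list of 75 of which 71 were tested, were read beside the members. In HBSS 23 were higher and 11 lower, which is 32.4% and 15.5% beside 23.6% and 24.7% of all genes. With Torin in WT 27 were higher and 14 lower, which is 38.0% and 19.7% beside 20.5% and 23.4%. CLN8 was listed for the delivery of enzymes to the lysosome, not as a protein of the lysosomal membrane, and its loss causes a form of neuronal ceroid lipofuscinosis. CLN8 was at 21.5, 23.9 and 21.1 in WT control and 120 and 127 in HBSS, a log2 difference of 2.43 ± 0.15 (adjusted p = 6.35e-19, limma). The chloride transporter CLCN7 was at 51.6, 75.6 and 65.6 and 192 and 162 (1.46 ± 0.12, adjusted p = 1.18e-14). Acid phosphatase ACP2 went from 34.4, 34.8 and 39.4 to 11.1 and 11.9 in HBSS (-1.57 ± 0.16, adjusted p = 1.26e-11). All HBSS libraries were outside the control range for these genes.

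With Torin CTSF, the cysteine protease cathepsin F, was at 25.3, 28.9 and 32.8 in WT control and 95.4 and 95.3 in Torin (1.69 ± 0.13, adjusted p = 4.94e-15). GRN, the progranulin precursor, was at 247, 244 and 240 and 524 and 522 (1.10 ± 0.11, adjusted p = 3.06e-10). GGH, gamma-glutamyl hydrolase, which trims folate polyglutamates, went from 51.3, 40.6 and 40.0 to 18.1 and 18.0 (-1.23 ± 0.14, adjusted p = 1.14e-09). Torin gave 30 higher and 13 lower in TFE3 KO (42.3% and 18.3%, beside 25.4% and 26.0% of all genes). It gave 20 and 7 in TFEB KO (28.2% and 9.86%, beside 17.4% and 21.0%) and 33 and 13 in DKO (46.5% and 18.3%, beside 25.4% and 26.2%). Without drug 1 was higher and 3 lower in TFE3 KO (1.41% and 4.23%, beside 3.57% and 5.84%), and 9 and 2 in TFEB KO (12.7% and 2.82%, beside 7.46% and 7.18%). In DKO 4 were higher and 6 lower, and their 5.63% and 8.45% were near the 5.64% and 7.49% of all genes. The list was chosen with earlier results of these data known.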
